A study of Homo sapiens with 12 samples.

Results

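Regions of m6A-enriched RNA that were called in a single library were examined in the prostate cancer line C4-2, an androgen-independent derivative of LNCaP cells. The study deposited 1 list of m6A peaks for each of 6 immunoprecipitated (IP) libraries. Peaks on the same strand that overlapped by at least 1 base were joined into 25666 regions, and the 10015 regions (39.0%) with a peak from exactly 1 list are described here. Members were chosen by whether each deposited list held a peak there, so their number, and how their score and width compare with those of shared regions, are given as descriptions. Each member consisted of 1 peak, because no 2 peaks of a list overlapped.

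N6-methyladenosine (m6A) is a common internal modification of messenger RNA. It is written by a methyltransferase complex around METTL3 and METTL14, removed by the demethylases ALKBH5 and FTO, and read by proteins such as the YTH and IGF2BP families, which act on the decay, translation and stability of the marked RNA. In m6A immunoprecipitation sequencing, fragmented RNA is pulled down with an m6A antibody, and a peak is a stretch where pulled-down RNA exceeds a background. Known m6A peaks gather near stop codons, in 3′ untranslated regions and in long internal exons, often several to a transcript.

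One group carried an empty vector (NC, genotype NC, no treatment) and the other an ALKBH5 overexpression construct (oeALKBH5, the label given for both genotype and treatment). Each group had 3 IP and 3 input libraries, 12 in all, from rRNA-depleted total RNA. The labels name neither the vector nor its promoter, and do not say whether a group was 1 clone or whether replicates came from separate cultures, so tests over libraries measure a spread that may be technical. ALKBH5 stood at 64.9, 61.1 and 58.2 FPKM (fragments scaled to transcript length and mapped fragments) in the NC inputs and at 80.3, 74.3 and 72.5 FPKM in the oeALKBH5 inputs (replicates 1, 2 and 3), groups that did not overlap (exact two-sided permutation p = 0.1, the smallest that 3 against 3 can give). The 9 luminal prostate markers examined were present in every input, from HOXB13 at 52.3 FPKM or more to KLK3 at up to 1019.55 FPKM. The basal markers KRT5 and TP63 stayed at or under 3.07 and 0.657 FPKM, and the leukocyte marker PTPRC at or under 0.456 FPKM. COL1A1, a fibroblast collagen, ranged from 2.17 FPKM in oeALKBH5 replicate 1 to 27.6 FPKM in oeALKBH5 replicate 2, and its part in the results was not tested.

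Before the single-list regions are compared, 2 libraries must be named. The lists of oeALKBH5 replicates 1 and 3 held 16060 and 15052 peaks, while the other 4 lists held between 11478 (oeALKBH5 replicate 2) and 11902 peaks (NC replicate 1). The read depth of the IP libraries is unknown. Peak score, the authors' own value for each peak, had a median in the regions present in all 6 lists of 696 in oeALKBH5 replicate 1, 444 in replicate 3 and 423 in replicate 2, against 550 to 553 in the NC lists. Long lists and high scores therefore did not go together in oeALKBH5 replicate 3, and the part of depth or of pull-down efficiency was not tested.

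In replicate order 1, 2 and 3, the NC lists had 815, 794 and 736 single-list regions and the oeALKBH5 lists 3425, 924 and 3321. oeALKBH5 replicates 1 and 3 supplied 67.4% of them. The third library of that group stood close to the NC lists and above all of them as deposited. With peaks scoring at least 100 alone, oeALKBH5 replicate 2 had 487, fewer than the 502 of NC replicate 1. Of their members as deposited, 206 and 179 scored at least 100, so most of these regions were shared before the cut. As deposited, there were on average 781.7 ± 40.9 members per NC list and 2557 ± 1415 per oeALKBH5 list (mean ± SD, n = 3 libraries per group). The difference of 1775 is given without a test because the rule sets the numbers. The difference was 822 with scores of at least 100 and 2749.8 without oeALKBH5 replicate 2. It was 287 when oeALKBH5 replicates 1 and 3 were left out and the remaining 4 lists were joined anew, which leaves 1 oeALKBH5 library and no test.

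As a share of the regions in which a list had a peak, single-list regions made up 6.90%, 6.92% and 6.37% in the NC lists and 21.6%, 8.11% and 22.3% in the oeALKBH5 lists. The NC mean was 6.73% ± 0.309 and the oeALKBH5 mean 17.3% ± 7.99 (SD, n = 3 each), a difference of 10.6 percentage points that became 16.0 without oeALKBH5 replicate 2. List length moved with this result. When each list was cut to its 11478 highest-scoring peaks, the number in the shortest list, the counts became 942, 1007 and 936 in NC and 1293, 1211 and 1787 in oeALKBH5, a difference of 469. The groups still did not overlap, and oeALKBH5 replicate 1 then lay nearer to replicate 2 than to replicate 3. The NC counts rose because the cut also removed partner peaks from regions that had been shared.

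**Figure D1:**
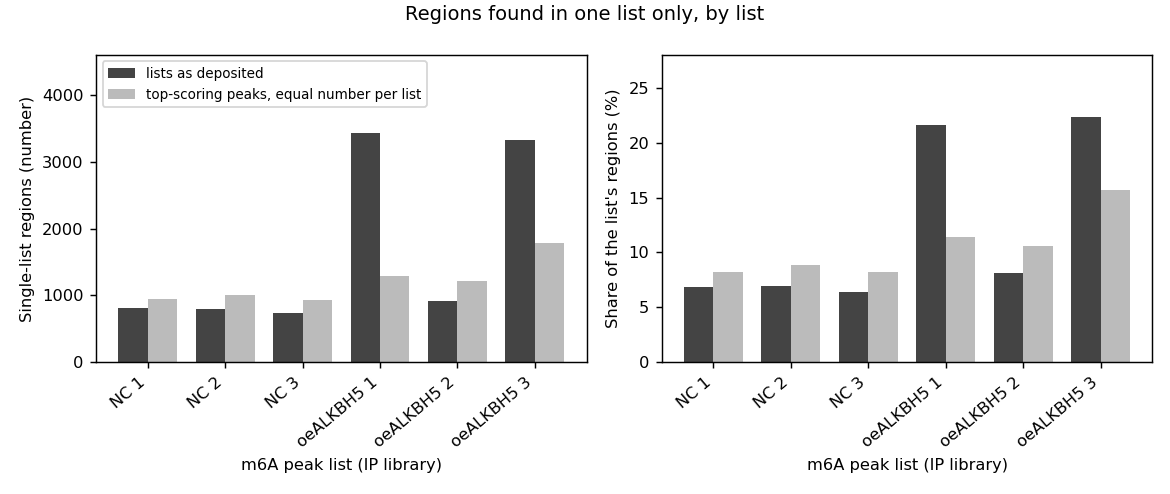
Number of single-list regions (left) and their share of the list's regions in percent (right) for each of the 6 m6A peak lists, as deposited (dark bars) and with the 11478 highest-scoring peaks of each list (light bars). The dark bars of oeALKBH5 replicates 1 and 3 reach 3425 and 3321 regions, and the light bars of all 6 lists lie between 936 and 1787.

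The nearest class outside the rule, regions in exactly 2 lists, showed which lists paired. Of 3503 such regions, 688 (19.6%) were shared by oeALKBH5 replicates 1 and 3. The next largest pair, oeALKBH5 replicates 1 and 2, held 288. Pairs within NC held 140 to 169 regions, fewer than any pair between an NC list and oeALKBH5 replicate 1 (239 to 273) or 3 (208 to 222). They held more than any pair between an NC list and oeALKBH5 replicate 2 (123 to 131). The counts were not scaled to list length, and oeALKBH5 replicates 1 and 3 had the longest lists. The 2 lists with most regions of their own thus also shared the most regions with each other.

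**Figure D2:**
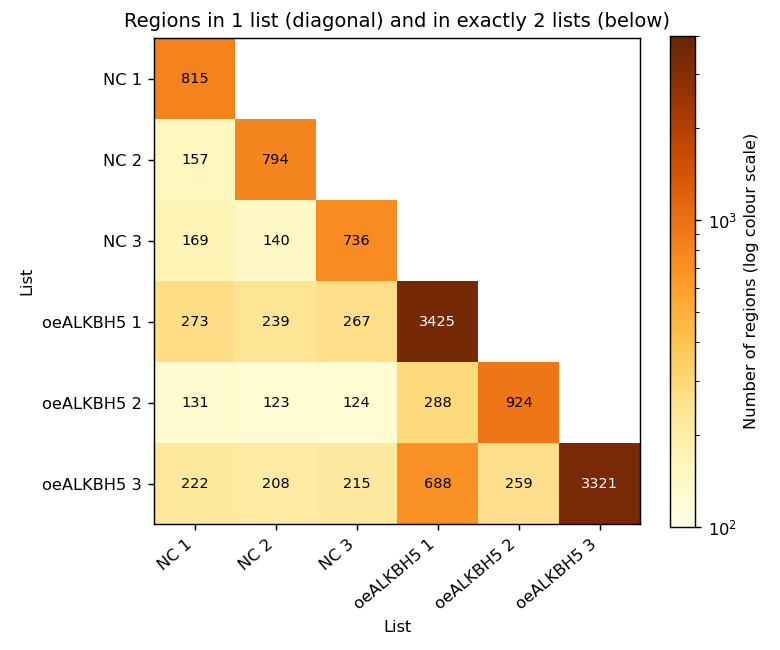
Number of regions found in 1 list only (diagonal) and in exactly 2 lists (below the diagonal), with both axes giving the list and a logarithmic colour scale for the number. oeALKBH5 replicates 1 and 3 stand out on the diagonal (3425 and 3321) and in the pair they form (688).

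Single-list peaks scored low within their own lists, as far as the deposited minimum score of 50 lets weak peaks appear at all. A within-list percentile ranks each peak among the peaks of its own list, so that 100 is the highest score. The median percentile of single-list regions was 14.0, 14.2 and 14.4 for NC and 20.4, 15.1 and 21.6 for oeALKBH5 (replicates 1, 2 and 3). All 3 oeALKBH5 values were above all 3 NC values, by 4.84 percentile points on average (14.2 ± 0.222 against 19.0 ± 3.43, SD, n = 3 each; exact permutation p = 0.1). With scores of at least 100 the groups overlapped, oeALKBH5 replicate 2 at 14.0 lying under NC replicate 3 at 15.3, and the difference was 3.40 points (exact permutation p = 0.2). With lists of equal length it was 3.14 points. Median raw scores lay close together, at 70.0, 70.8 and 70.9 in NC and 77.6, 69.7 and 72.9 in oeALKBH5. Single-list peaks made up 6.85%, 6.87% and 6.33% of the peaks in NC and 21.3%, 8.05% and 22.1% in oeALKBH5. Low-scoring members that fill more of a list reach higher ranks in it. The percentile is therefore tied to the number of members, which was not tested, and its p is not separate evidence.

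The percentile rose with each further list that shared the region. Pooled over lists, the median was 18.6 for peaks found in 1 list, 24.0 for those in 2, 29.8 in 3, 36.6 in 4, 46.3 in 5 and 74.1 in all 6. In the lowest 10% of scores of each list, 25.5%, 26.2% and 23.3% of NC peaks and 55.7%, 27.6% and 55.1% of oeALKBH5 peaks were single-list. In the highest 10% the share was under 1% in every list, from 0.258% in NC replicate 3 to 0.797% in oeALKBH5 replicate 3. The excess of oeALKBH5 replicates 1 and 3 over the other lists went on above the middle scores. Between the 50th and 60th percentile, 11.6% and 12.9% of their peaks were single-list, against 1.38% to 2.70% in the other 4 lists. Between the 70th and 80th percentile it was 1.74% and 2.46%, against 0.436% to 0.865%.

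**Figure D3:**
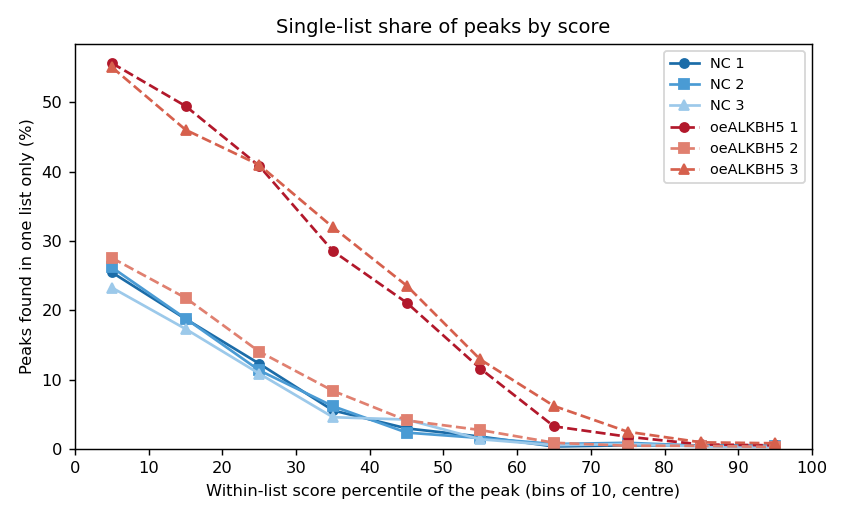
Share of a list's peaks that were found in one list only (vertical axis, percent) by within-list score percentile in bins of 10 (horizontal axis), with a line for each list. The lines of oeALKBH5 replicates 1 and 3 start at 55.7% and 55.1% and the other 4 at 23.3% to 27.6%, and all lie under 1% in the highest bin.

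Of all single-list regions, 813 (8.12%) ranked above the middle of their list and 36 above the 90th percentile. Those 36 were spread over the lists, with 5, 5 and 3 in NC and 8, 3 and 12 in oeALKBH5 replicates 1, 2 and 3. Their median width was 250.5 bases and their median distance to a region present in all 6 lists was 18652 bases, against 120923 bases for the other 9979. Another list had a peak within 1000 bases, without overlap, for 13 of the 36 (36.1%) and for 11.5% of the others. The score carried by 21 of them was exactly 3100, a value that recurs through all lists and so ranks no peak above another.

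The highest-scoring members are given by position on genome build hg19, 1-based. Genes and transcript parts at these positions were not analysed here. The score of 3100 was shared by 4, 5 and 1 members in NC and by 3, 2 and 6 in oeALKBH5 replicates 1, 2 and 3, and among members tied there the widest are named. In NC replicate 1 the highest score was that of chr7:101986917-101987661 on the minus strand, 745 bases wide with a score of 3197.34 (percentile 99.9), and the nearest peak of another list on that strand was 349 bases away. Of the 4 tied below it, the widest was chr1:35649201-35650194 on the minus strand, with 994 bases (percentile 96.8) and 2407 bases from another list's peak. NC replicate 2 had chr16:30003642-30004691 (minus strand, 1050 bases) and chr16:685689-686316 (minus strand, 628 bases), both with a score of 3100. The first lay 535 bases and the second 50427 bases from a peak of another list. In NC replicate 3 they were chr17:72205326-72205600 (plus strand, 275 bases, score 3100) and chr20:52824502-52824663 (plus strand, 162 bases, score 3082.66). The chromosome 17 region had no peak of another list on its strand for 221922 bases.

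In oeALKBH5 replicate 1 the widest of the tied members were chr11:62444791-62445304 (minus strand, 514 bases) and chr6:44221226-44221625 (plus strand, 400 bases), both with a score of 3100 and 5553 and 2889 bases from another list's peak. oeALKBH5 replicate 2 had chr16:89629292-89630184 (plus strand, 893 bases, score 3100) and chr19:42071036-42071128 (plus strand, 93 bases, score 3100), the latter 140125 bases from any other list's peak on its strand. In oeALKBH5 replicate 3 the widest of the 6 tied were chr16:24580066-24581820 (plus strand, 1755 bases, score 3100) and chr9:79318253-79319015 (minus strand, 763 bases, score 3100), at 376 and 661 bases from another list's peak. For the chromosome 9 region that neighbour was a region present in all 6 lists. High-scoring members therefore included some close to another list's peak and some more than 100000 bases from any such peak on their strand.

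Most single-list regions were narrow. Their median width was 180 bases, with 99 to 320 bases between the 25th and 75th percentile, and 25.1% were under 100 bases. Median widths were 202, 191 and 183 bases in NC and 177, 201 and 171 bases in oeALKBH5 replicates 1, 2 and 3. These overlapped between groups (192 ± 9.54 against 183 ± 15.9 bases, SD, n = 3 each; difference -9.0, exact permutation p = 0.4), and the difference turned to 7.0 bases with lists of equal length and to 9.83 bases without oeALKBH5 replicates 1 and 3. With 1 list left out it stayed negative, from -19.7 bases without oeALKBH5 replicate 2 to -4.67 bases without oeALKBH5 replicate 3. Between mean widths the difference was -51.1 bases (exact permutation p = 0.2). There the groups also overlapped, oeALKBH5 replicate 2 at 304.3 bases lying above NC replicate 2 at 303.1 bases. At the short end, 50 were under 10 bases and 7 were 1 base wide. At the long end, 342 reached 1000 bases.

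Peaks widened as more lists shared them, from a pooled median of 180 bases in 1 list to 231 in 2, 273 in 3, 291 in 4, 366 in 5 and 515 in all 6. Single-list regions thus made up 39.0% of all regions but covered 2756717 bases, 19.5% of the bases in all regions. Among peaks under 100 bases, 12.5% to 14.8% were single-list in the NC lists, 16.7% in oeALKBH5 replicate 2, and 42.0% and 43.4% in oeALKBH5 replicates 1 and 3. Among peaks of 1000 bases or more the share was 1.19% to 1.62% in NC and 4.14%, 1.43% and 3.09% in oeALKBH5. A wide peak has more room to overlap another, so width bears on the rule that chose the members.

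**Figure D4:**
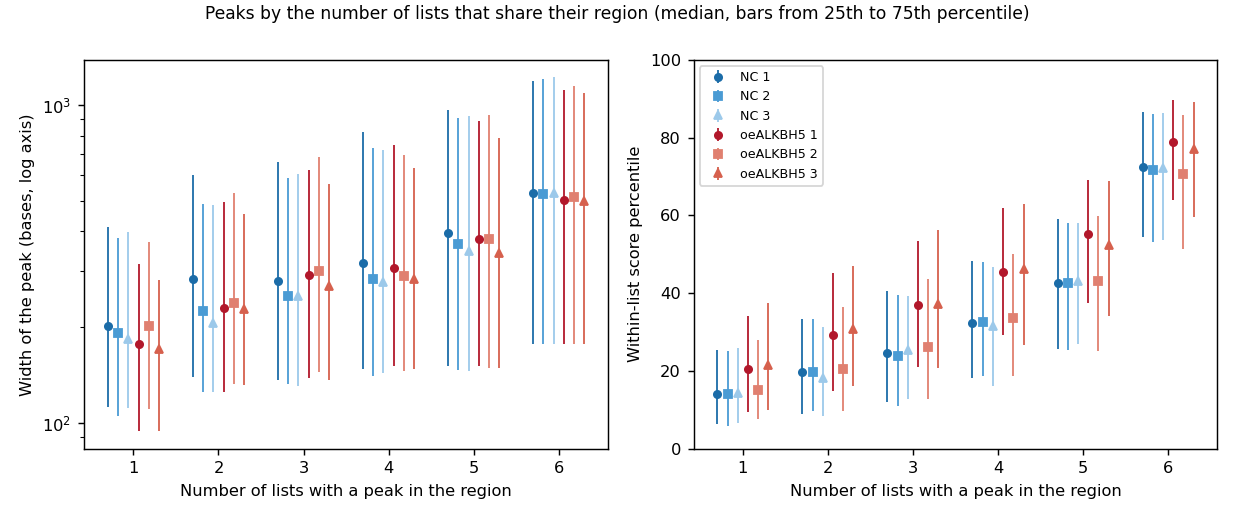
Width of each list's peaks in bases on a logarithmic axis (left) and their within-list score percentile (right), by the number of lists that share the region (horizontal axis). Symbols are medians and bars run from the 25th to the 75th percentile. The pooled median goes from 180 bases in 1 list to 515 bases in 6, and from percentile 18.6 to 74.1.

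The widest member of each list scored at or under percentile 53.6. In oeALKBH5 replicate 1 it was chr7:90893783-90898131 on the plus strand (4349 bases, percentile 40.7). NC replicate 1 followed with chr11:94861541-94865815 on the plus strand (4275 bases, score 50.4, percentile 0.231), next to the lowest score deposited. The widest of oeALKBH5 replicate 3, chr9:100883257-100887187 on the minus strand, had 3931 bases and percentile 53.6. That of oeALKBH5 replicate 2, chr21:38884214-38887557 on the plus strand, had 3344 bases and percentile 27.8. NC replicates 2 and 3 had chr3:9517167-9519838 (plus strand, 2672 bases, percentile 9.69) and chr2:120020633-120023228 (plus strand, 2596 bases, percentile 5.40).

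Single-list regions lay far from the regions that all 6 lists held. The median distance to the nearest such region on the same strand, counted as bases between edges, was 120508 bases over all members with one on their strand. By list it was 94893, 114850.5 and 92686.5 bases in NC and 134164.5, 135376.5 and 118735.5 bases in oeALKBH5 replicates 1, 2 and 3. The groups did not overlap and differed by 28616 bases (100810 ± 12209 against 129426 ± 9278, SD, n = 3 each; exact permutation p = 0.1). The size of this difference varied with the setting. Where lists were left out, the rest were joined anew and distance ran to regions in all remaining lists. Members and target then changed as well as the libraries. Without NC replicate 1 the difference was 16686 bases, and with scores of at least 100 it was 45148 bases. With lists of equal length it was 22189 bases (exact permutation p = 0.2) and the groups overlapped, oeALKBH5 replicate 3 at 124906 bases lying under NC replicate 2 at 127121 bases. Without oeALKBH5 replicates 1 and 3 it was 12972 bases, and with peaks joined on either strand it was 8479 bases (exact permutation p = 0.3), with the 2 groups overlapping.

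Within 1000 bases of a region held by all lists there were 159 single-list regions (1.59%), and within 10000 bases 14.9% of them. More than 100000 bases away were 53.6%, and 1212 lay beyond 1000000 bases. For 4 members, 3 in oeALKBH5 replicate 1 and 1 in oeALKBH5 replicate 3, no region of all 6 lists was on the same chromosome strand, and they have no distance.

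Distance was also set against regions in 2 to 5 lists, which by construction do not overlap a region of all 6 lists either. In each of the 6 lists the single-list regions were farther away. The within-list differences in median ran from 29139 bases in NC replicate 1 to 66301 bases in oeALKBH5 replicate 1, with a mean of 48683 ± 14867 bases (SD, n = 6 lists; exact two-sided sign-flip permutation p = 0.0312, Benjamini-Hochberg adjusted over 3 features p = 0.0469). That p is the smallest 6 lists allow, and the lists share their comparison regions, so the 6 differences are not fully independent. Members, comparison regions and regions of all 6 lists were all defined by the number of lists with a peak. Over all regions, median distance fell with that number, from 120508 bases for 1 list to 85347.5 for 2 and 56111 for 5. Score and width also differ with it and were not matched, so the p does not tell distance apart from them. With the difference of any 1 list left out of the mean, the smallest possible p is 0.0625. Against regions in exactly 2 lists the mean difference was 29993 bases, again positive over the 6 lists (exact permutation p = 0.0312).

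**Figure D5:**
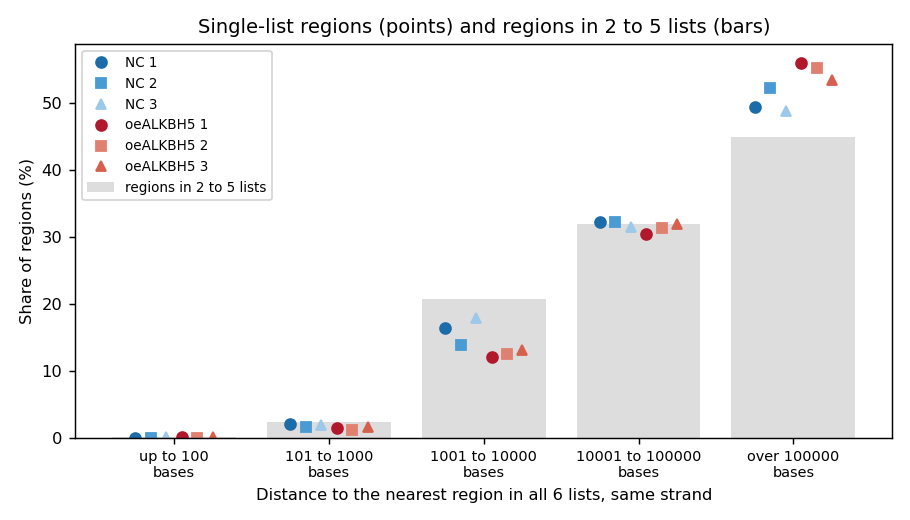
Share of regions in percent (vertical axis) by distance to the nearest region present in all 6 lists on the same strand (horizontal axis, classes in bases), with points for the single-list regions of each list and grey bars for regions in 2 to 5 lists. In the class over 100000 bases the points lie between 48.8% and 56.0% and the bar at 44.8%, and in the class that ends at 10000 bases all points lie under the bar at 20.8%.

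The farthest member of 4 lists was on chromosome Y, which held 3 regions of all 6 lists. NC replicate 1 had chrY:59355683-59355884 (plus strand, 202 bases, percentile 23.2) and oeALKBH5 replicate 3 had chrY:59355973-59356131 (plus strand, 159 bases, percentile 11.2), 57684345 and 57684635 bases from a region of all lists and 88 bases from each other. NC replicate 2 had chrY:59354670-59354816 (plus strand, 147 bases), 850 bases from another list's peak. These 3 thus lay side by side in different libraries without joining. In oeALKBH5 replicate 1 the farthest was chrY:16168464-16168838 (plus strand, 375 bases, percentile 59.6), 14497126 bases away. The farthest of NC replicate 3, chr4:48037625-48038441 on the plus strand (817 bases, percentile 26.9), and of oeALKBH5 replicate 2, chrX:31089535-31089840 on the minus strand (306 bases, percentile 36.1), were 6287027 and 7038900 bases away.

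Few members missed a neighbour by a small gap. A peak of another list lay within 10 bases of 8 members, within 100 bases of 96 (0.959%) and within 1000 bases of 1165 (11.6%). The share within 1000 bases was 12.9%, 13.0% and 15.5% in NC and 10.1%, 15.4% and 10.7% in oeALKBH5 replicates 1, 2 and 3. Its lowest values were those of oeALKBH5 replicates 1 and 3. At the border of the rule, chr13:72440908-72441169 (minus strand, oeALKBH5 replicate 2, percentile 18.8) and chr13:72441171-72441330 (minus strand, oeALKBH5 replicate 3, percentile 0.967) were separated by 1 base and counted as 2 members. Also in oeALKBH5 replicate 3, chr9:116817365-116817816 on the plus strand (452 bases, percentile 6.43) stopped 1 base short of a region of all 6 lists. Just outside the rule, the smallest overlap among regions of exactly 2 lists was 4 bases. This was found at chr1:160057480-160059212 on the plus strand (oeALKBH5 replicates 1 and 2), at chr1:228589767-228590274 on the minus strand (oeALKBH5 replicates 1 and 3) and at chr2:96559281-96559353 on the minus strand (NC replicate 3 and oeALKBH5 replicate 1). Only 11 of the 3503 overlapped by 10 bases or fewer, and the median overlap was 216 bases.

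Strand and chromosome, which the rule used only to decide which peaks could join, set single-list regions little apart. The minus strand held 49.4%, 50.3% and 49.2% of them in NC and 48.7%, 51.5% and 49.7% in oeALKBH5 replicates 1, 2 and 3. The mean within-list difference from regions in 2 to 5 lists was 0.590 percentage points (SD 1.07, n = 6 lists, positive in 4 of 6; exact sign-flip permutation p = 0.406, adjusted p = 0.406). By chromosome, their shares lay near those of the regions of all 6 lists. Chromosome 1 held 9.77% against 10.4% and chromosome 19 held 7.09% against 7.44%. Chromosome 2 was higher, at 7.13% against 6.27%, and chromosome 5 lower, at 4.44% against 5.44%, both chosen after their values were seen.

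Peaks of another list on the opposite strand overlapped 29 of the members, 3, 4 and 3 in NC and 8, 3 and 8 in oeALKBH5. The share was lower than in regions of 2 to 5 lists in 6 of 6 lists, with a mean difference of -0.132 percentage points (range -0.276 to -0.0123; exact sign-flip permutation p = 0.0312, adjusted p = 0.0469). These are counts of 3 to 8 regions a list. Single-list peaks were also narrower, and without peaks under 100 bases the difference did not pass the test (-0.113 points, exact permutation p = 0.125). Peak names were unique within every list, so no interval could be traced to a neighbour as part of a split peak.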

How the data were processed

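The study measured m6A-immunoprecipitated and input RNA of C4-2 cells. Per the submitters' processing notes, the build was hg19 and the tools were Cufflinks, Cuffdiff, HISAT2 2.0.4 and cutadapt 1.9.3, whose roles are not given. The score of each peak is used as deposited by the authors in 1 list per IP library; the peak names start with MACS, and the caller's version, control and later filters are not given in the sources used here. All lists held 3328 identical intervals, the peak numbers ran to 152176 in a list of 11902 peaks (NC replicate 1), and the lowest score was 50, so the lists may have been filtered or cut after calling. Gene values are FPKM as deposited by the authors, a unit inferred from the tools named and from the values, and served to check ALKBH5 and cell identity. No counts were used, so depth is unknown and no counting interval was computed.

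Peaks of the 6 lists were joined by 1 base of overlap on the same strand. Percentiles are average ranks within a list. Groups come from the sample titles. Number and share per list are set by the rule and given without a test. Other values per list were compared by exact two-sided permutation over the 20 assignments of 6 libraries, and features against regions in 2 to 5 lists by exact sign flips over the 64 patterns, adjusted over the 3 features that could be tested of 4 planned. The members, lists and tests were chosen with earlier results of these data known. Regions were named by rule: per list the 2 highest-scoring, the widest and the farthest from a region of all lists, plus the 3 closest to another list and the 3 smallest overlaps among regions of 2 lists. Alternatives were other joining rules, stricter scores, lists of equal length, libraries left out and the replicate number as a block. The joining steps were tested on simulated lists with known answers. Python 3.11.15, pandas 2.3.3, numpy 2.4.6 and matplotlib 3.10.9 were used. Sequences and gene annotation of hg19 were not used here.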

Additional observations from a re-analysis of the deposited data

How the results depend on the processing

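Of 122 values recomputed under an alternative, 3 turned in direction. Exact permutation of 3 against 3 libraries cannot fall under p = 0.1, so their p says nothing about stability, and sizes are given instead. The difference of 1775 in number per list became 822 with scores of at least 100 and 469 with lists of equal length, and that of 10.6 percentage points in share became 7.39 and 4.13. For differences between groups, leaving out 1 list meant joining the rest anew and taking distance to regions in all remaining lists. This gave 1574 to 2749.8 in number, 9.57 to 16.0 points in share, 4.02 to 6.95 percentile points and 16686 to 24628 bases in distance. The difference between groups in median width (-9.0 bases) turned to 4.83 bases with scores of at least 100, to 7.0 bases with lists of equal length and to 9.83 bases without oeALKBH5 replicates 1 and 3, a setting chosen after seeing the data. It stayed negative with 1 list left out (-19.7 to -4.67 bases), and between mean widths it was -51.1 bases. The total of 10015 single-list regions became 5345 with scores of at least 100, where fewer peaks enter. Of the 10015, only 2683 scored at least 100. The rest of the 5345 were in shared regions before the cut removed partner peaks. The total was 6063 without oeALKBH5 replicates 1 and 3, where 4 lists enter. That last setting also gave differences between groups of 287 regions, 2.76 percentage points in share and 1.83 percentile points. In distance, here to regions in all 4 lists, it gave 12972 bases. For distance and opposite-strand overlap against regions in 2 to 5 lists, lists were left out of the mean only. Their peaks stayed in the joined regions, so these values do not show the result without those libraries. With the difference of 1 list left out, the means were 45159 to 52592 bases in distance and -0.155 to -0.103 percentage points in overlap. All had exact permutation p = 0.0625, the smallest 5 lists allow. With the differences of both oeALKBH5 replicates 1 and 3 left out, they were 43546 bases and -0.103 points (exact permutation p = 0.125 each, the smallest for 4 lists). Without peaks under 100 bases, where regions were joined anew, the overlap difference was -0.113 points (exact permutation p = 0.125).

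Of the 27 regions named by the rule, 22 were still single-list when peaks within 100 bases were joined. All 27 stayed so when a larger overlap, set relative to the shorter peak, was required. That was fixed in advance, because a stricter overlap cannot add a list to a region. With a replicate block, the differences are the same by construction (28616 bases for distance), and exact sign-flip permutation over 3 pairs gave p = 0.25 for percentile, distance and ALKBH5, the smallest 3 pairs allow, and p = 0.5 for width. The numbers were not taken to pair the libraries. Deviations of log2 score from the group mean over 5809 regions of all lists correlated by 0.0160, 0.0200 and 0.00606 for same-numbered libraries, which is under 0.1, although each library correlated best with its own number. No alternative could be computed for recurring peak names, of which there were 0, and no low-value filter applied to the 1 gene tested. Depth is unknown, which limits any reading of list length.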

Other observations

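Single-list regions of the same list sometimes followed one another on a strand with no region of another list between them. Runs of at least 3 such regions with gaps of at most 10000 bases numbered 1, 0 and 1 in NC and 17, 1 and 23 in oeALKBH5 replicates 1, 2 and 3, and held 54 and 71 members in oeALKBH5 replicates 1 and 3. Their share of the list's members was 1.58% and 2.14% there, and at most 0.408% in the other 4 lists. The longest, 3 in oeALKBH5 replicate 1 and 2 in oeALKBH5 replicate 3, had 4 members. They were at chr22:22037471-22043138 and chr5:140729896-140737198 (plus strand) and chr6:56327844-56342190 (minus strand) in oeALKBH5 replicate 1, and at chr17:41353703-41371837 and chr17:73732646-73744981 (both plus strand, oeALKBH5 replicate 3). The run on chromosome 5 had widths of 254 to 531 bases and percentiles of 1.54 to 48.0. More members per list also make runs more frequent, and these runs were looked for after the other results were seen.

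Among members within 10000 bases of a region present in all 6 lists, that region lay toward the 3′ end for 63.6%, 49.6% and 58.2% in NC and 56.2%, 63.2% and 61.8% in oeALKBH5 replicates 1, 2 and 3. In regions of 2 to 5 lists the same share was 55.9% to 60.9%, and single-list regions were above it in 3 of 6 lists.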
